A study of Homo sapiens with 14 samples.

Results

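The comparison described here is between 2 RNA libraries of U2OS cells, an established human osteosarcoma line: 1 from cells given valproic acid (VPA, 20 µM, 24 h) and 1 from cells given rapamycin (5 µM, 24 h). It was chosen for its closeness, from the FPKM values of the first replicate set, so the size of the difference between these libraries is given as a description and without a test. The libraries are 2 of 14 in the series. Genes were kept where their mean over the 10 libraries of the first replicate set reached 1 FPKM, which left 12804 of 28501 genes. The control was the solvent DMSO at 0.5% by volume, for which the labels give no time. VPA had 1 library, and rapamycin and DMSO each had a second one in a separate table. Nothing in the labels tells whether replicates came from cultures of their own. The remaining libraries of the first set were from cells given 2-PCPA (1 mM, 12 h), GSK343 (10 µM, 24 h), BIX-01294 (5 µM, 12 h), BRD4770 (20 µM, 24 h), GSK-J4 (20 µM, 12 h), SAHA (1 µM, 24 h) or UNC1215 (50 µM, 24 h). In all of these libraries less RNA per cell and fewer cells of a kind cannot be told apart.

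VPA is a short branched-chain fatty acid used as an anticonvulsant. At millimolar concentrations it is known to inhibit class I and IIa histone deacetylases, which raises histone acetylation, and the 20 µM used here is in the micromolar range. Rapamycin binds the immunophilin FKBP1A, and the complex inhibits mTORC1, the kinase complex that promotes protein synthesis, ribosome production and lipid synthesis and that holds back autophagy. The molecules have different direct targets.

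Of the 45 pairs that can be formed from the 10 libraries, VPA and rapamycin had the fewest genes at least 1 log2 apart on the log2(FPKM + 1) scale, 331 genes or 2.59% of those measured. UNC1215 against DMSO had 391 and VPA against GSK343 had 480. By other measures the pair came second. Its Pearson correlation across genes was 0.962 against 0.964 for UNC1215 and DMSO, its Spearman correlation was 0.962 against 0.964, and its median absolute difference was 0.195 against 0.181 log2. The name closest pair therefore holds for the count of distant genes and not for the other 3 measures. VPA differed from DMSO by at least 1 log2 at 563 genes and rapamycin differed from DMSO at 676. Those last counts share the DMSO library.

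**Figure D1:**
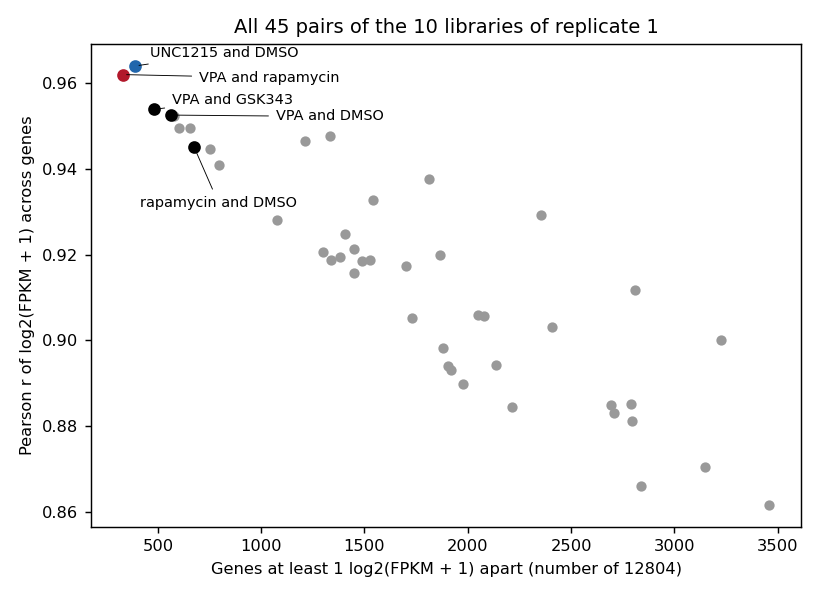
Each point is 1 of the 45 pairs of libraries of the first replicate set; the x axis is the number of genes at least 1 log2(FPKM + 1) apart and the y axis the Pearson correlation across 12804 genes. VPA and rapamycin (red) lie furthest left at 331 genes, and UNC1215 and DMSO (blue) lie highest at 0.964.

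The deposited values are FPKM, reads scaled to transcript length and to library size, so the number of reads is not stated. The spacing of the lowest values gave the VPA library 1.38 times the depth of the rapamycin library, from 226 of 936 low genes that sat on this step. With transcript lengths from GENCODE, 1 FPKM in a 2 kb transcript corresponds to about 7.55 reads in the VPA library and 5.44 in the rapamycin library, and read numbers below are estimates of this kind. Olfactory receptor genes, which a bone tumour line is not known to use, were above 0 for 2.67% of 375 genes in VPA and for 6.40% in rapamycin. The markers of an osteosarcoma line summed to 1388 FPKM in VPA and 1382 FPKM in rapamycin, with 8 of 10 at 1 FPKM or more in at least 1 of them. COL1A2 was at 0 in VPA and at 0.066 FPKM in rapamycin. Blood markers summed to 2.04 FPKM in VPA and 2.49 FPKM in rapamycin, and 8 of 10 were at 0 in both. Epithelial markers summed to 14.8 and 13.4 FPKM in VPA and rapamycin, with 1 of 8 at 0 in both. Endothelial markers summed to 2.03 and 0.792 FPKM in VPA and rapamycin, with 3 of 6 at 0 in both. The part of depth and of these markers in the differences below was not tested.

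Most genes had nearly the same value in VPA and rapamycin. The difference, VPA minus rapamycin, stayed within 1.5-fold at 90.0% of genes, and its median was 0.08 log2 with an SD of 0.50. Of the 12804 genes, 183 (1.43%) were at least 1 log2 higher in VPA and 148 (1.16%) at least 1 log2 lower. At 1.5-fold, 821 genes (6.41%) were higher in VPA and 458 (3.58%) lower, and counts of list members below are to be read against these shares and the 90.0%. In all 62.1% of genes lay above 0, and once the median was set to 0 the counts at 1 log2 were 153 higher and 185 lower. With quantile normalization they were 165 higher and 183 lower, so the split between higher and lower is not fixed by these data. Of the 331 genes apart, 151 were small RNA or clone rows and 100 were listed at 0 in 1 of the libraries. Named genes with at least 1 FPKM in both libraries made up 90 of them, with 54 higher and 36 lower in VPA. For counts against DMSO below, the medians of all genes in the first set were 0.01 log2 in VPA and -0.06 log2 in rapamycin. The shares of all genes above and below that DMSO were not counted. In the second table rapamycin was below DMSO at 55.6% of 11751 genes and above it at 44.4%.

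**Figure D2:**
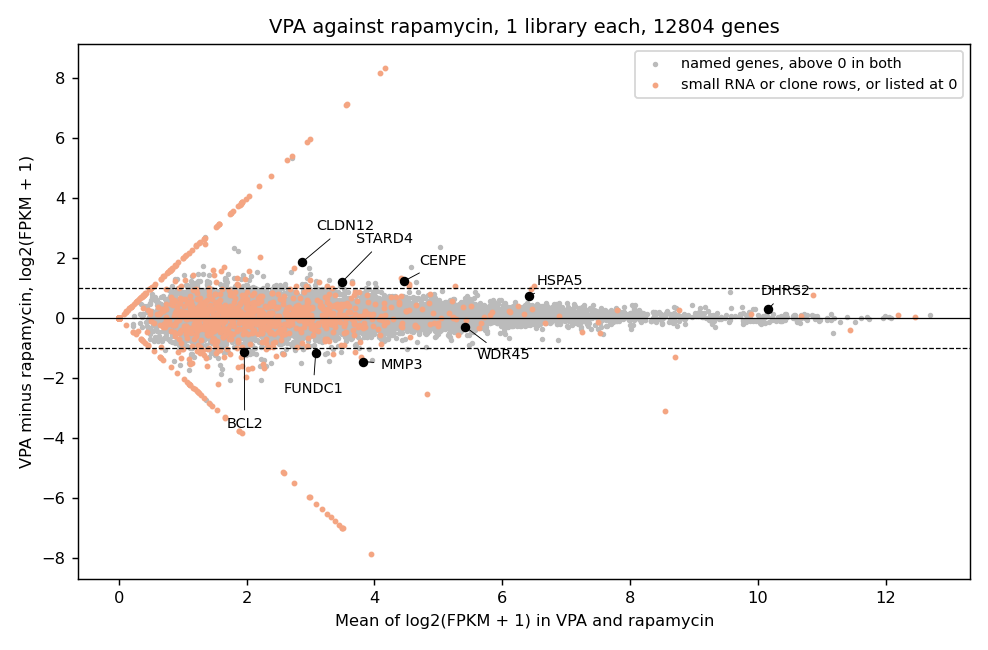
The x axis is the mean of log2(FPKM + 1) in VPA and rapamycin and the y axis is VPA minus rapamycin on that scale, for 12804 genes; dashed lines mark a difference of 1 in either direction. Rows of small RNAs, clones and genes listed at 0 (orange) form the outer arms, and named genes (grey) narrow around 0 as their level goes up.

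The share of genes apart became smaller as expression went up. It was 5.83% of 3501 genes with a mean below 4 FPKM in the pair, 1.75% of 4975 genes from 4 to 16 FPKM, 0.970% of 3298 genes from 16 to 64 FPKM and 0.777% of 1030 genes at 64 FPKM and above. VPA has no replicate, so the only replicate error at hand is that of rapamycin minus DMSO, which was measured in both tables. Its robust SD between the tables, scaled to a single difference, was 0.35, 0.27, 0.23 and 0.20 log2 in the same 4 ranges. The robust SD of VPA minus rapamycin was 0.40, 0.29, 0.21 and 0.16 log2. The difference between VPA and rapamycin across the bulk of genes was thus about as wide as the spread between the replicate tables, and narrower than it above 16 FPKM. The gene sets differ: the replicate spread covers the 2778, 4740, 3231 and 1002 genes found in both tables, and that of the pair all genes. The pair was also chosen for its closeness in these values, so its narrow spread is partly set by that choice.

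The direct targets and their partners were at like levels. MTOR, the kinase, had 18.4 FPKM in VPA, 18.8 FPKM in rapamycin and 14.8 FPKM in DMSO. FKBP1A, the rapamycin-binding protein, had 104 FPKM in VPA, 100.8 FPKM in rapamycin and 103 FPKM in DMSO. RPS6KB1, the S6 kinase that mTORC1 activates, had 13.6 FPKM in VPA, 14.8 FPKM in rapamycin and 17.6 FPKM in DMSO. EIF4EBP1, the translation repressor that mTORC1 phosphorylates, had 96.4 FPKM in VPA, 78.7 FPKM in rapamycin and 134 FPKM in DMSO, the 2 lowest of the 10 libraries being VPA and rapamycin. The histone deacetylase genes HDAC1 and HDAC2 had 74.3 and 19.3 FPKM in VPA against 76.1 and 19.9 FPKM in rapamycin. HDAC3 had 25.2 FPKM in VPA and 19.9 FPKM in rapamycin, a difference of 0.33 log2. None of the 28 measured genes of the mTOR and TSC list or of the 16 histone deacetylase genes was 1.5-fold apart. IRS2, an insulin signalling adaptor, did not pass the filter on low values.

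Genes of the translation apparatus were closely matched in the pair. Transcripts of ribosomal proteins and of several translation factors carry a terminal oligopyrimidine (TOP) tract, through which mTORC1 controls their translation. Of 78 ribosomal protein genes past the filter, 77 were within 1.5-fold and the median of VPA minus rapamycin was -0.0038 log2. The median ribosomal protein gene was at 1160 FPKM in VPA, 1174 FPKM in rapamycin and 986 FPKM in DMSO. Against DMSO, 73 of 78 were above it in VPA and 75 of 78 in rapamycin, with medians of 0.28 and 0.30 log2 that share the DMSO library. The second rapamycin library had 77 of 77 above its DMSO, with a median of 0.29 log2. All 18 TOP translation factors were within 1.5-fold, with a median difference of -0.04 log2, and stood 0.29 log2 above DMSO in VPA and 0.33 in rapamycin. The 26 genes of ribosome biogenesis, which make and process ribosomal RNA, were also all within 1.5-fold. Their medians were 24.3 FPKM in VPA, 24.9 FPKM in rapamycin and 35.6 FPKM in DMSO.

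In autophagy, cytoplasmic cargo is enclosed in a membrane and passed to the lysosome, and receptors tie the cargo to the ATG8 proteins of that membrane. The median difference over 31 core genes was 0.0017 log2, and 29 were within 1.5-fold, near the 90.0% of all genes. The exceptions were PIK3C3, the lipid kinase that starts the membrane, with 5.60 FPKM in VPA and 3.29 FPKM in rapamycin, and ATG2A, a lipid transfer protein, with 8.77 FPKM in VPA and 5.50 FPKM in rapamycin. GABARAPL1, an ATG8 protein, had 46.6 FPKM in VPA, 48.2 FPKM in rapamycin and 25.7 FPKM in DMSO. WDR45, a protein of the growing membrane, had 37.8 FPKM in VPA, 46.4 FPKM in rapamycin and 15.3 FPKM in DMSO. WDR45 in the second table had 48.0 FPKM in rapamycin and 19.3 FPKM in DMSO. Both genes therefore stood above DMSO in VPA and rapamycin alike. MAP1LC3B, the ATG8 protein most used as an autophagy marker, had 41.3 FPKM in VPA, 53.1 FPKM in rapamycin and 40.0 FPKM in DMSO.

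The autophagy receptors were the autophagy list most displaced towards rapamycin, with a median of -0.19 log2 over 13 genes. Of these, 1 was at least 1 log2 lower in VPA and 0 were higher. FUNDC1, a receptor on the outer mitochondrial membrane, had 4.63 FPKM in VPA, 11.7 FPKM in rapamycin and 7.50 FPKM in DMSO, and VPA minus rapamycin was -1.17 log2. VPA was the lowest of the 10 libraries for it, and the estimated reads were 20.9 in VPA and 38.1 in rapamycin. FUNDC1 in the second table was at 7.85 FPKM in rapamycin and 7.74 FPKM in DMSO. SQSTM1 (p62), a receptor for ubiquitinated cargo, had 79.3 FPKM in VPA, 92.2 FPKM in rapamycin and 50.2 FPKM in DMSO. CCPG1, an ER-phagy receptor, had 15.5 FPKM in VPA, 22.5 FPKM in rapamycin and 11.4 FPKM in DMSO. All 33 listed lysosome genes and all 15 listed genes of the V-ATPase, the proton pump of the lysosome, were within 1.5-fold, with medians of -0.05 and 0.03 log2. ATP6V1E2, a V-ATPase subunit outside the list, was apart: it had 11.3 FPKM in VPA, the highest of the 10 libraries, 3.80 FPKM in rapamycin and 3.47 FPKM in DMSO.

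Targets of FOXO factors and of nutrient stress were mostly alike. TXNIP, a glucose-responsive arrestin, had 3.89 FPKM in VPA, 6.32 FPKM in rapamycin and 0.788 FPKM in DMSO. PIK3IP1, an inhibitor of PI3 kinase, was the gene of the insulin feedback and FOXO list furthest apart, with 1.43 FPKM in VPA, 2.98 FPKM in rapamycin and 0.531 FPKM in DMSO. DDIT4, which restrains mTORC1 under stress, had 4.50 FPKM in VPA, 3.25 FPKM in rapamycin and 18.1 FPKM in DMSO, and these were the lowest of the 10 libraries. ATF4 drives genes of amino acid supply. Over 30 of its targets the median was 12.1 FPKM in VPA, 9.87 FPKM in rapamycin and 19.6 FPKM in DMSO, and 28 were within 1.5-fold. Against DMSO the list medians were -0.69 log2 in VPA and -0.73 log2 in rapamycin, values that share the DMSO library. The second rapamycin library had 18 of 30 below its DMSO and 12 above, near the 55.6% of all genes below. The list median there was smaller, at -0.17 log2. ATF5, a related transcription factor, had 34.0 FPKM in VPA, 19.9 FPKM in rapamycin and 38.3 FPKM in DMSO. GDF15, a secreted stress cytokine that p53 also induces, had 0.473 FPKM in VPA, 2.34 FPKM in rapamycin and 1.40 FPKM in DMSO, from about 2.15 and 7.63 reads in VPA and rapamycin. All 19 aminoacyl tRNA synthetase genes were within 1.5-fold.

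Cholesterol synthesis was the list with the largest median difference. These genes are driven by SREBP2, which is released when sterol in the endoplasmic reticulum is low, and mTORC1 is known to promote SREBP activity. Of 25 members past the filter, 7 were at least 1.5-fold higher in VPA and 0 lower, against 6.41% and 3.58% of all genes, and 2 were at least 1 log2 higher, against 1.43%. The median difference was 0.45 log2 against 0.08 over all genes, and 0.35 to 0.49 log2 under all 12 alternative settings. The median member had 19.5 FPKM in VPA, 11.9 FPKM in rapamycin and 29.1 FPKM in DMSO. Rapamycin was the lowest of the 10 libraries for 9 of the 25 genes and VPA for 0. The share of all genes with rapamycin lowest was not counted. It was also lowest for 15 of 30 ATF4 targets and 7 of 19 aminoacyl tRNA synthetases, and for 0 of 33 lysosome genes. Against DMSO, 22 of the 25 cholesterol synthesis genes were below it in VPA and 23 in rapamycin. The medians of -0.53 and -0.91 log2 share the DMSO library. The second rapamycin library had 17 of 25 below its DMSO and 8 above, against 55.6% of all genes below. The list median there was -0.29 log2.

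The members furthest apart were STARD4, a sterol carrier, and DHCR7, which makes cholesterol in the last step of its pathway. STARD4 had 15.9 FPKM in VPA, 6.41 FPKM in rapamycin and 18.3 FPKM in DMSO, a difference of 1.19 log2 between VPA and rapamycin. DHCR7 had 21.5 FPKM in VPA, 8.90 FPKM in rapamycin and 31.0 FPKM in DMSO, a difference of 1.18 log2. Rapamycin was the lowest of the 10 libraries for both genes, whereas VPA stood among the others. In the second table STARD4 had 12.0 FPKM in rapamycin and 17.1 FPKM in DMSO, and DHCR7 had 29.5 FPKM in rapamycin and 38.2 FPKM in DMSO. The reads were about 88.3 and 25.6 for STARD4 and 213 and 63.8 for DHCR7, in VPA and rapamycin. MSMO1, a sterol demethylase, had 27.2 FPKM in VPA and 15.8 FPKM in rapamycin. ACAT2, an acetyl-CoA thiolase, had 24.7 FPKM in VPA and 14.4 FPKM in rapamycin. HMGCS1, which makes the precursor of mevalonate, had 18.3 FPKM in VPA, 11.5 FPKM in rapamycin and 35.8 FPKM in DMSO, and the second table had 17.5 FPKM in rapamycin and 31.6 FPKM in DMSO.

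Because STARD4 and DHCR7 were the sterol genes furthest apart, the 250 bases before their starts are shown, from RefSeq on GRCh38.p14. STARD4 lies on the minus strand at chr5:111512536-111512785 and DHCR7, at the start that is nearer the gene body, on the minus strand at chr11:71448394-71448643. Sequences are given 5′ to 3′ along the gene, with CCAAT on either strand in capitals.
STARD4: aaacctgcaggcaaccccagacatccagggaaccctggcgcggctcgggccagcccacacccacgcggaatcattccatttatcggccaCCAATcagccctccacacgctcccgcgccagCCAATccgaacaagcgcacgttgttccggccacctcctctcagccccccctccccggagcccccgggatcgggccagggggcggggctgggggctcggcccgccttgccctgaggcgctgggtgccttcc
DHCR7: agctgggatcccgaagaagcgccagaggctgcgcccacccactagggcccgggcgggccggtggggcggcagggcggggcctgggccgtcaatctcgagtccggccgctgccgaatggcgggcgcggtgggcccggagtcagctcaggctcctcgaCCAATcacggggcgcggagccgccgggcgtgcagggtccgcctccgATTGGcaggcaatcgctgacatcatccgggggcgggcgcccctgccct
CCAAT is the letter string bound by NF-Y, a factor that works with SREBP at many sterol genes. Each of these windows holds it 2 times, the window of a second DHCR7 start at chr11:71449044-71449293 holds it 0 times, and 32.0% of 35116 RefSeq windows of this length hold it at least once. The letters TCACNCCAC, one form of the sterol regulatory element, were searched on both strands and are in neither window; 0.883% of all windows hold them.

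Fatty acid synthesis genes, driven by the related factor SREBP1, had a median difference of 0.28 log2 over 12 members, with 1 at least 1.5-fold higher in VPA and 0 lower. That gene was SCD, the stearoyl-CoA desaturase, with 23.1 FPKM in VPA, 13.5 FPKM in rapamycin and 57.2 FPKM in DMSO, and VPA and rapamycin had the 2 lowest values of the 10 libraries. SCD in the second table had 36.9 FPKM in rapamycin and 50.8 FPKM in DMSO. FASN, the fatty acid synthase, had 38.4 FPKM in VPA, 31.1 FPKM in rapamycin and 50.9 FPKM in DMSO. All members of the glycolysis list (19), of nucleotide synthesis (22) and of the nuclear-encoded respiratory chain (36) were within 1.5-fold. The hypoxia targets PDK1 and ANKRD37 differed by at least 1.5-fold, and by less than 1 log2, in opposite directions. PDK1 had 2.43 FPKM in VPA and 1.16 FPKM in rapamycin, and ANKRD37 had 2.22 FPKM in VPA and 4.06 FPKM in rapamycin. The estimated reads in VPA and rapamycin were 27.4 and 9.45 for PDK1 and 9.56 and 12.6 for ANKRD37.

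Among chaperones of the endoplasmic reticulum, 2 of 19 were at least 1.5-fold higher in VPA and 0 lower, against 6.41% and 3.58% of all genes, with a list median of 0.18 log2. A count of 2 is near the background. HSPA5 (BiP), the main chaperone of that compartment, had 110 FPKM in VPA, 65.2 FPKM in rapamycin and 168 FPKM in DMSO, a difference of 0.74 log2. Rapamycin was the lowest of the 10 libraries. The second rapamycin library did not have this low value: HSPA5 was at 171 FPKM in it and at 145 FPKM in its DMSO. MANF, a secreted survival factor of the same response, had 70.9 FPKM in VPA, 45.8 FPKM in rapamycin and 90.8 FPKM in DMSO, with 81.6 FPKM in the second rapamycin library and 86.0 FPKM in its DMSO. Over the list, 18 of 19 genes were above DMSO in rapamycin in the second table, whereas 16 of 19 were below it in the first. The HSPA5 window is on the minus strand at chr9:125241344-125241593, on GRCh38.p14 from RefSeq, with the ER stress response element in capitals.
HSPA5: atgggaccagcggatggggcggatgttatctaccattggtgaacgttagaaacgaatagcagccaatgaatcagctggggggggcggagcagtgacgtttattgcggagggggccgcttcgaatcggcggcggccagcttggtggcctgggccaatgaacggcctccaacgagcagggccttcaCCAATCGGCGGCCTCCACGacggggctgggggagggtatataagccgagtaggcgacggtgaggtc
The element is CCAAT, 9 further bases and CCACG, and it contains the CCAAT string searched above. It spans 66 to 48 bases before the start, and 0.0740% of the 35116 windows hold it on either strand.

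Interferon-stimulated genes had the second largest list median, 0.35 log2 over 15 of 26 members that passed the filter. Of these, 1 was at least 1 log2 higher in VPA and 0 lower, and at 1.5-fold 5 were higher and 1 lower, against 6.41% and 3.58% of all genes. ISG15, a ubiquitin-like modifier, had 23.1 FPKM in VPA, 9.81 FPKM in rapamycin and 18.7 FPKM in DMSO, a difference of 1.16 log2 from about 62.0 and 19.0 reads. ISG15 in the second table had 18.3 FPKM in rapamycin and 28.3 FPKM in DMSO. Most of the list went the other way in that rapamycin library. Of 13 members found there, 9 were above its DMSO and 4 below, with a median of 0.11 log2. IRF1, a transcription factor of the response, had 7.25 FPKM in VPA, 3.93 FPKM in rapamycin and 3.65 FPKM in DMSO. IFIT3, an RNA-response protein, had 1.62 FPKM in VPA and 0.599 FPKM in rapamycin, and IFI27 had 0.701 FPKM in VPA and was listed at 0 in rapamycin and DMSO. IFI44 went the other way, with 4.49 FPKM in VPA, 7.41 FPKM in rapamycin and 9.96 FPKM in DMSO. The best expressed member, IFITM3, a membrane protein that blocks virus entry, had 99.3 FPKM in VPA, 76.8 FPKM in rapamycin and 84.0 FPKM in DMSO. The ISG15 window, the gene of this list furthest apart, is on the plus strand at chr1:1013247-1013496, on GRCh38.p14 from RefSeq.
ISG15: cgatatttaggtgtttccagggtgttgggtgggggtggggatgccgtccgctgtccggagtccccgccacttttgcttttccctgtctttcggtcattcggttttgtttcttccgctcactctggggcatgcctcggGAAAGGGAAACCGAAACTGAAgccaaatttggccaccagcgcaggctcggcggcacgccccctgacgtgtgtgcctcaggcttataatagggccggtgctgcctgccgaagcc
Capitals mark GAAANNGAA, the core of the interferon-stimulated response element, searched on both strands. It occurs 3 times in overlap between 113 and 93 bases before the start, and 6.88% of the 35116 windows hold it at least once.

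Of the genes known to respond to histone deacetylase inhibitors, all 14 measured members were within 1.5-fold between VPA and rapamycin. Of these, 11 lay above 0 and 3 below, against 62.1% of all genes above 0. The member furthest from 0, TXNIP, was lower in VPA, at -0.58 log2. The list median was 0.23 log2 against 0.08 over all genes. Against DMSO the medians were 0.31 log2 in VPA and 0.01 log2 in rapamycin, with 11 and 7 of 14 above DMSO, values that share the DMSO library. H1F0, the linker histone H1.0, had 474 FPKM in VPA, 371 FPKM in rapamycin and 357 FPKM in DMSO, against 843 FPKM in SAHA, a hydroxamate inhibitor of histone deacetylases. DHRS2, a dehydrogenase, had 1273 FPKM in VPA, 1030 FPKM in rapamycin, 2274 FPKM in SAHA and 1003 FPKM in DMSO. CDKN1A (p21), an inhibitor of cyclin-dependent kinases, had 70.4 FPKM in VPA, 57.2 FPKM in rapamycin and 57.9 FPKM in DMSO. H1F0 and DHRS2 in VPA were nearer to rapamycin and DMSO than to SAHA, which was given at another dose, while CDKN1A had 77.9 FPKM in SAHA, nearer to its VPA value.

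Among other chromatin lists, the replication-dependent histones had 3 of 20 genes at least 1 log2 higher in VPA and 1 lower. The shares over all genes were 1.43% and 1.16%. At 1.5-fold 4 were higher and 4 lower, and the list median was 0.08 log2, as over all genes. HIST1H2BF and HIST1H2AH had 5.28 and 2.99 FPKM in VPA and were listed at 0 in rapamycin. HIST1H3D had 3.54 FPKM in VPA and 0.000132 FPKM in rapamycin, while HIST1H3F had 0.175 FPKM in VPA and 2.88 FPKM in rapamycin. Members of this family are near-identical and their transcripts mostly lack poly(A) tails, so single values are uncertain. The HOX genes, which set positional identity, had 4 of 24 members at least 1.5-fold higher in VPA and 1 lower, against 6.41% and 3.58% of all genes. HOXA7 had 5.60 FPKM in VPA and 2.97 FPKM in rapamycin, HOXB13 had 4.83 FPKM in VPA and 2.50 FPKM in rapamycin, and HOXA13 had 2.10 FPKM in VPA and 1.02 FPKM in rapamycin. HOXC5 had 0.438 FPKM in VPA and 2.31 FPKM in rapamycin and carries the same value as HOXC4 and HOXC6 in the second table, so its reads are shared there. Neuronal genes repressed by REST had 9 of 25 members past the filter. SYP had 1.53 FPKM in VPA and 0.640 FPKM in rapamycin, L1CAM 10.8 FPKM in VPA and 6.78 FPKM in rapamycin, SNAP25 3.27 FPKM in VPA and 1.82 FPKM in rapamycin, and CHGB 1.19 FPKM in VPA and 2.34 FPKM in rapamycin.

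CENPE was the gene of the cell division lists furthest apart. This kinesin carries chromosomes to the spindle equator, and it had 33.1 FPKM in VPA, 13.4 FPKM in rapamycin and 15.9 FPKM in DMSO, a difference of 1.24 log2 from about 1031 and 301 reads. VPA was the highest of the 10 libraries, and the other 8 ran from 5.04 to 24.4 FPKM. CENPE in the second table had 15.1 FPKM in rapamycin and 17.2 FPKM in DMSO, near the rapamycin value of the first. CDC25C, the phosphatase that starts mitosis, went the other way with 8.93 FPKM in VPA, 14.7 FPKM in rapamycin and 6.53 FPKM in DMSO. The other 24 of 26 G2 and mitosis genes, all 24 S phase genes and all 14 G1 cyclins and inhibitors were within 1.5-fold.

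BCL2, the inhibitor of apoptosis, had 1.62 FPKM in VPA, 4.79 FPKM in rapamycin and 1.73 FPKM in DMSO, a difference of -1.14 log2 from about 30.7 and 65.3 reads. In the second table BCL2 was at 2.74 FPKM in rapamycin and 3.97 FPKM in DMSO, so its first rapamycin value was not seen again against DMSO. BCL2A1, a relative of it, was listed at 0 in VPA and had 1.45 FPKM in rapamycin; the other 14 of 16 members were within 1.5-fold. MDM2, the ubiquitin ligase of p53, had 35.2 FPKM in VPA, 22.6 FPKM in rapamycin and 32.2 FPKM in DMSO, and 20 of 22 p53 targets were within 1.5-fold. Feedback genes of the MAPK pathway had 2 of 11 members at least 1.5-fold lower in VPA and 0 higher, against 3.58% and 6.41% of all genes. The list median went the other way, at 0.13 log2, with 6 members above 0 and 5 below. SPRY2, an inhibitor of receptor signalling, had 1.78 FPKM in VPA, 4.46 FPKM in rapamycin and 2.68 FPKM in DMSO, and PHLDA1 had 1.87 FPKM in VPA, 3.70 FPKM in rapamycin and 1.81 FPKM in DMSO. PER3, a clock gene, had 10.2 FPKM in VPA, 5.73 FPKM in rapamycin and 8.89 FPKM in DMSO.

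Secreted targets of YAP and TGF-beta had a median difference of -0.18 log2 over 18 genes, with 1 at least 1 log2 lower in VPA and 0 higher. ESM1, a secreted proteoglycan, had 1.99 FPKM in VPA, 6.78 FPKM in rapamycin and 0.431 FPKM in DMSO. ESM1 in the second table had 38.4 FPKM in rapamycin and 0.166 FPKM in DMSO, so it was above DMSO in both rapamycin libraries and above it in VPA too. TGFBI, a matrix protein, had 28.2 FPKM in VPA, 43.2 FPKM in rapamycin and 14.2 FPKM in DMSO. Of the collagen and matrix genes, 23 of 24 were within 1.5-fold, and COL3A1, a fibrillar collagen, had 3.45 FPKM in VPA and 1.92 FPKM in rapamycin. All members past the filter were within 1.5-fold in the lists of immediate early genes (17), NF-kB targets (14), actin genes (22), heat shock proteins (18), proteasome (31), NRF2 targets (16) and metallothioneins (8). Over all 40 lists, 7 of 833 genes were at least 1 log2 higher in VPA and 7 lower, against 1.43% and 1.16% of all genes, and 30 lists had 0 genes that far apart in either direction.

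**Figure D3:**
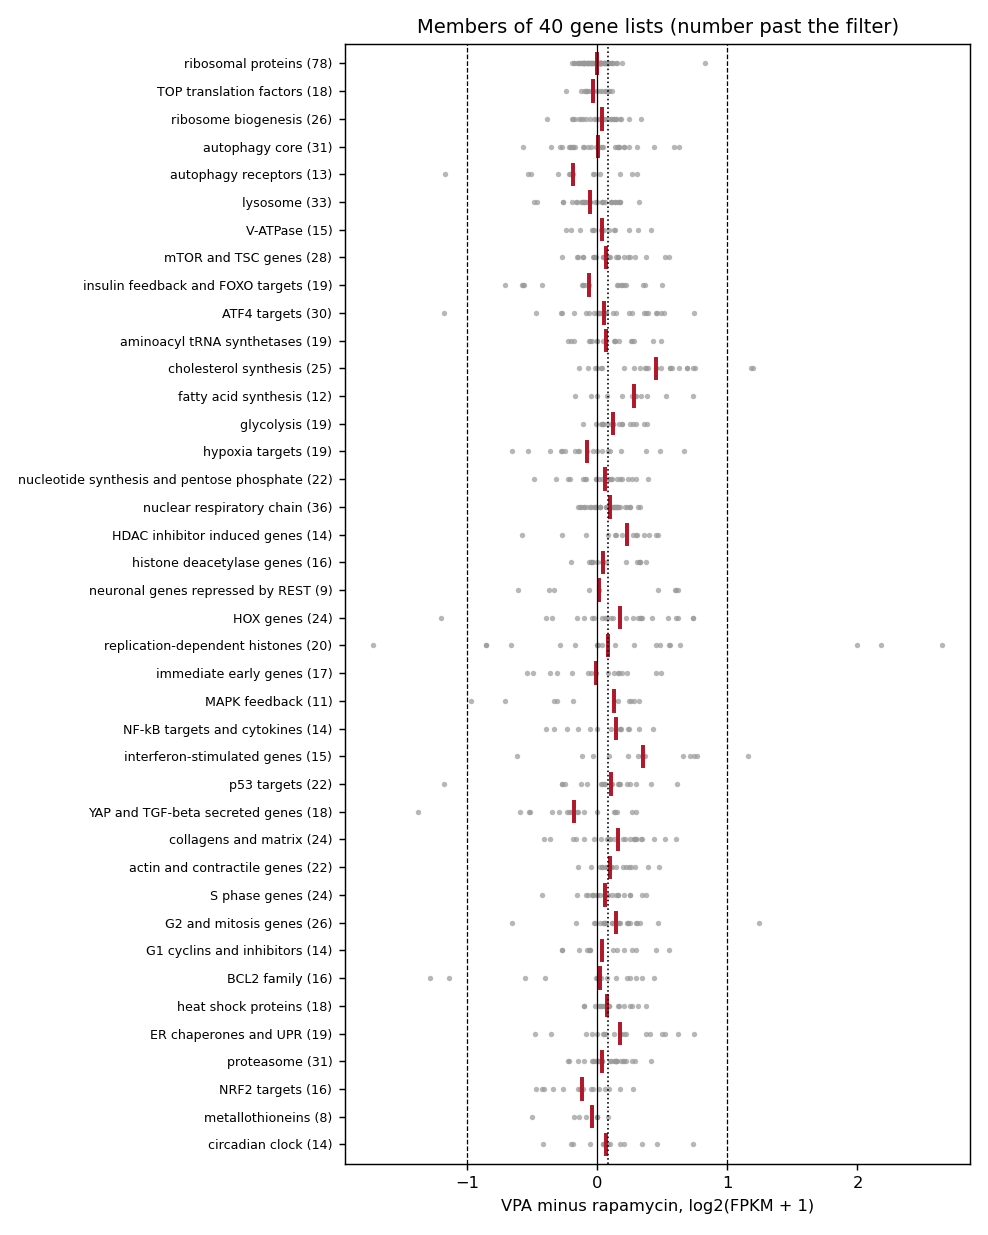
Each grey point is a gene of 1 of the 40 lists, placed by VPA minus rapamycin on the log2(FPKM + 1) scale, and each red bar is the list median; the dotted line is the median of all genes (0.08) and dashed lines mark 1 in either direction. Cholesterol synthesis (0.45) and interferon-stimulated genes (0.35) have the highest medians, and 77 of 78 ribosomal proteins lie close to 0.

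The 15 named genes most above rapamycin in VPA differed by 2.00 to 5.33 log2, and most of them rest on a near-zero value in 1 library. In rapamycin, 8 of the 15 were listed at 0 (PIGY, HIST1H2BF, RPL17-C18orf32, ZNF747, S100A4, SPATA24, FBXO16 and HIST1H2AH) and 3 lay above 0 but under 0.01 FPKM (SRRM5, C7orf55-LUC7L2 and HIST1H3D). The first of the ranking, SNURF, had 40.2 FPKM in VPA and 0.0288 FPKM in rapamycin, and it had 93.2 FPKM in the second rapamycin library. SNURF shares its transcript with SNRPN, and the joint row SNURF-SNRPN went the other way, with 1.94 FPKM in VPA and 5.67 FPKM in rapamycin. Of the 13 genes found in the second table, 12 had at least 1 FPKM in its rapamycin library. Among them, the joint row RPL17-C18orf32 has the same value there as RPL17, 1088 FPKM. The count therefore does not show that each of these transcripts was present by itself. The remaining 3 of the 15 were MRP63, a mitochondrial ribosomal protein, with 72.9 FPKM in VPA and 13.3 FPKM in rapamycin, SAP25, with 6.89 FPKM in VPA and 0.555 FPKM in rapamycin, and PRR4, with 6.90 FPKM in VPA and 0.682 FPKM in rapamycin. To reach these 15 genes, 35 small RNA or clone rows were passed over.

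The 15 named genes most below rapamycin in VPA differed by -2.92 to -1.58 log2, with 40 small RNA or clone rows passed over. Of these, 6 were listed at 0 in VPA (ZHX1-C8ORF76, PRM3, CCL24, NPCEDRG, CARD18 and HCST) and 2 lay under 0.01 FPKM (ADIRF and SYS1-DBNDD2). MAP1LC3B2, a near copy of the autophagy gene MAP1LC3B, had 1.27 FPKM in VPA and 8.52 FPKM in rapamycin, from about 3.17 and 15.3 reads, and its reads can be split with its parent. TREX1, a DNA exonuclease, had 0.622 FPKM in VPA and 5.83 FPKM in rapamycin. TICAM2, an adaptor of Toll-like receptor signalling, had 0.600 FPKM in VPA and 4.78 FPKM in rapamycin. The others were HIST1H3F, PRSS3P2, C4orf29 and the joint row TMX2-CTNND1. None of the 15 genes of either direction for which a length was known had 20 or more estimated reads in its lower library.

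A list restricted to genes with at least 1 FPKM in both libraries was added after the values were seen. Its 15 genes highest in VPA ran from 1.30 to 2.37 log2 and its 15 lowest from -2.07 to -1.18 log2. CLDN12, a tight junction claudin, had 12.9 FPKM in VPA, 2.82 FPKM in rapamycin and 10.0 FPKM in DMSO. CENPV, a centromere protein, had 10.1 FPKM in VPA, 2.77 FPKM in rapamycin and 6.10 FPKM in DMSO. NOX4, an oxidase that makes hydrogen peroxide, had 4.01 FPKM in VPA, 1.00 FPKM in rapamycin and 1.39 FPKM in DMSO. In the other direction, ZSCAN21, a zinc finger factor, had 3.32 FPKM in VPA, 11.0 FPKM in rapamycin and 5.76 FPKM in DMSO. PITX1, a homeobox factor of the hindlimb, had 5.24 FPKM in VPA, 13.1 FPKM in rapamycin and 6.93 FPKM in DMSO. MMP3, a matrix-degrading protease, had 7.56 FPKM in VPA, 22.3 FPKM in rapamycin and 12.2 FPKM in DMSO, and the second table had 20.6 FPKM in rapamycin and 2.66 FPKM in DMSO.

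Of 78 such genes with a known length that were at least 1 log2 apart, 7 had 50 or more estimated reads in both libraries, 3 of them higher in VPA and 4 lower. The higher ones were CENPE, DHCR7 and SLC24A5, an ion exchanger of pigment cells. SLC24A5 had 22.2 FPKM in VPA, 10.3 FPKM in rapamycin and 4.86 FPKM in DMSO, while the second table had 0.185 FPKM in rapamycin and 0.136 FPKM in DMSO, so the tables disagree on its level. The lower ones were MMP3, MID1IP1, HELZ and the joint row ANKHD1-EIF4EBP3. MID1IP1, a regulator of fatty acid synthesis, had 6.50 FPKM in VPA, 15.4 FPKM in rapamycin and 12.1 FPKM in DMSO. HELZ, an RNA helicase, had 4.14 FPKM in VPA, 9.45 FPKM in rapamycin and 5.67 FPKM in DMSO.

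**Figure D4:**
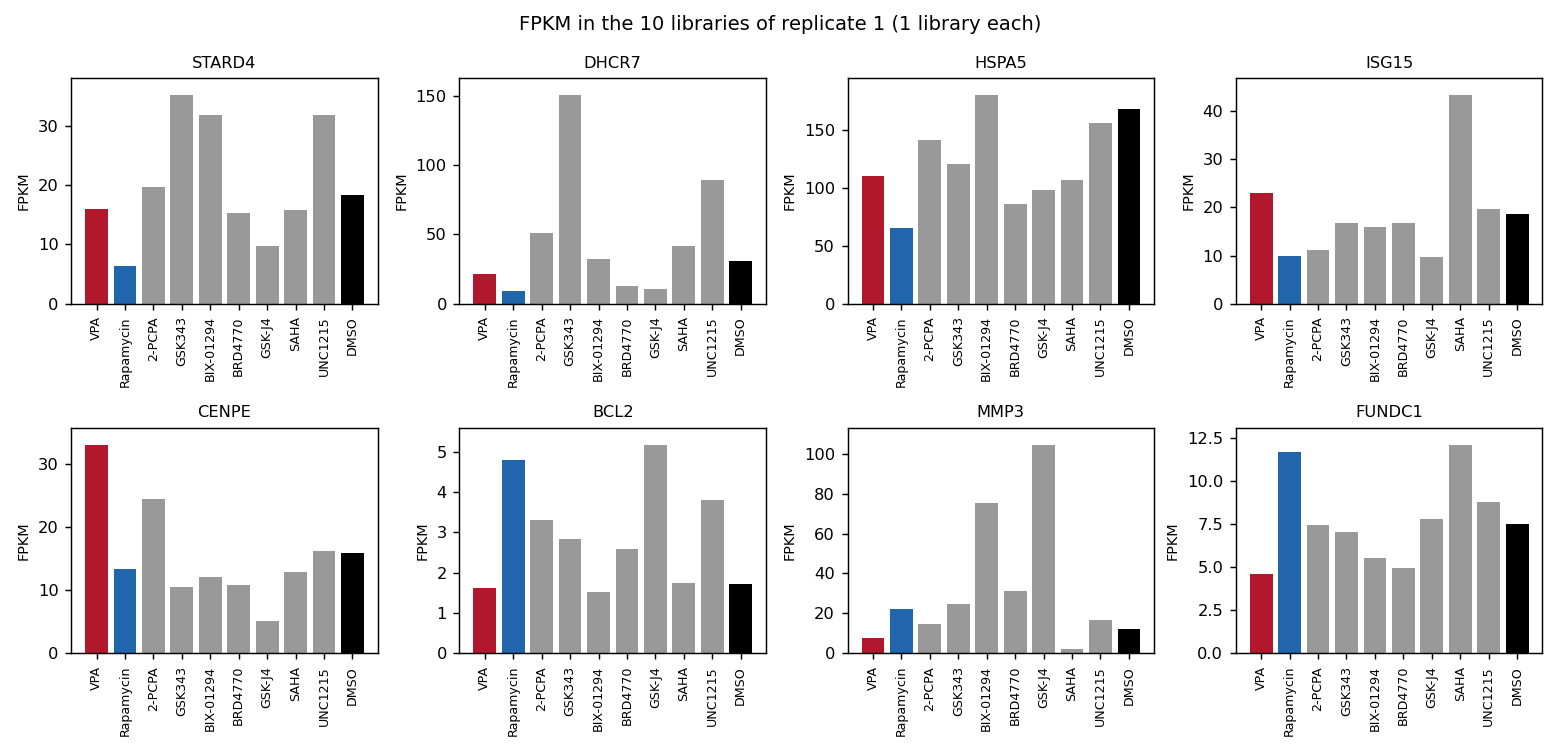
Bars give FPKM of 8 genes in the 10 libraries of the first replicate set, with VPA in red, rapamycin in blue and DMSO in black. Rapamycin has the lowest bar for STARD4, DHCR7 and HSPA5, VPA has the highest for CENPE (33.1 FPKM), and for every gene shown except CENPE the range of the other 8 libraries is wider than the gap within the pair.

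The second rapamycin and DMSO libraries were not used to choose the pair. Of the genes higher in VPA, 126 were found in that table, and rapamycin was below DMSO there for 72 of them, 57.1%, against 55.6% of all 11751 genes found in both tables. Of the genes lower in VPA, 80 were found, and rapamycin was above DMSO for 47 of them, 58.8%, against 44.4% of all genes. The first share is near the background, and the second is above it. Among genes lower in VPA by 1.5-fold with at least 1 FPKM in both libraries, 135 of 214, or 63.1%, were above DMSO in the second rapamycin library, against 43.6% of all such genes. For the matching genes higher by 1.5-fold, 275 of 475, or 57.9%, were below DMSO, against 56.4% of all such genes. At 1 log2, 26 of 52 such higher genes, or 50%, were below DMSO, and 18 of 31 lower genes, or 58.1%, were above it.

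Genes can also be picked by the second table alone and then read in the pair, a choice made after the data were seen. Without small RNA and clone rows, 100 genes were at least 1 log2 above DMSO in the second rapamycin library. VPA was below rapamycin in the first set for 72 of these and above it for 26, with a median of -0.24 log2. Over all 11348 such genes VPA was below rapamycin at 36.4% and the median was 0.09 log2. In the pair 82 of the 100 genes were within 1.5-fold, against 92.2% of all 11348 genes. The set stood above DMSO in VPA by a median of 0.44 log2 and in rapamycin by 0.76 log2, values that share the first DMSO library.

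Several of these genes are well covered. CTGF, a secreted YAP target, had 159 FPKM in VPA, 228 FPKM in rapamycin and 91.7 FPKM in DMSO. EMP1, an epithelial membrane protein, had 76.5 FPKM in VPA, 124 FPKM in rapamycin and 53.2 FPKM in DMSO. AMIGO2, an adhesion protein, had 90.2 FPKM in VPA, 149 FPKM in rapamycin and 75.3 FPKM in DMSO. MT2A, a metallothionein, had 1940 FPKM in VPA, 2745 FPKM in rapamycin and 982 FPKM in DMSO. For these genes VPA lay between DMSO and rapamycin. PDCD4, a translation inhibitor degraded after S6 kinase activity, had 14.2 FPKM in VPA, 17.0 FPKM in rapamycin and 5.95 FPKM in DMSO. UBALD2 had 113 FPKM in VPA, 121 FPKM in rapamycin and 26.7 FPKM in DMSO. PIM1, a kinase, had 33.9 FPKM in VPA, 37.9 FPKM in rapamycin and 12.1 FPKM in DMSO. For PDCD4, UBALD2 and PIM1 VPA was nearer to rapamycin than to DMSO. These examples were chosen after their values were seen, and other well covered members differed. CAV1 had 117 FPKM in VPA, 142 FPKM in rapamycin and 143 FPKM in DMSO, with VPA the lowest. PINK1 had 34.9 FPKM in VPA, 29.9 FPKM in rapamycin and 23.7 FPKM in DMSO, with VPA the highest. Members with VPA between DMSO and rapamycin were not counted.

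In the opposite set, 27 genes were at least 1 log2 below DMSO in the second rapamycin library. VPA was above rapamycin for 23 of them and below for 2, with a median of 0.28 log2, and 23 (85.2%) were within 1.5-fold against 92.2% of all such genes. The 27 include SNAR-F, a small RNA whose name the exclusion did not catch. It was listed at 0 in VPA, rapamycin and DMSO of the first set. EDN2, an endothelin, had 22.3 FPKM in VPA, 11.6 FPKM in rapamycin and 23.1 FPKM in DMSO, and 4.28 FPKM in the second rapamycin library against 11.3 FPKM in its DMSO. CNN1, a smooth muscle calponin, had 14.2 FPKM in VPA, 9.93 FPKM in rapamycin and 16.6 FPKM in DMSO. CGN, a tight junction protein, had 4.52 FPKM in VPA, 3.18 FPKM in rapamycin and 8.79 FPKM in DMSO. At the wider limit of 1.5-fold, VPA was below rapamycin for 264 of 440 genes above DMSO in the second rapamycin library, and above rapamycin for 203 of 242 genes below it, or 60% and 83.9%. Over all such genes VPA was above rapamycin at 63.5%.

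**Figure D5:**
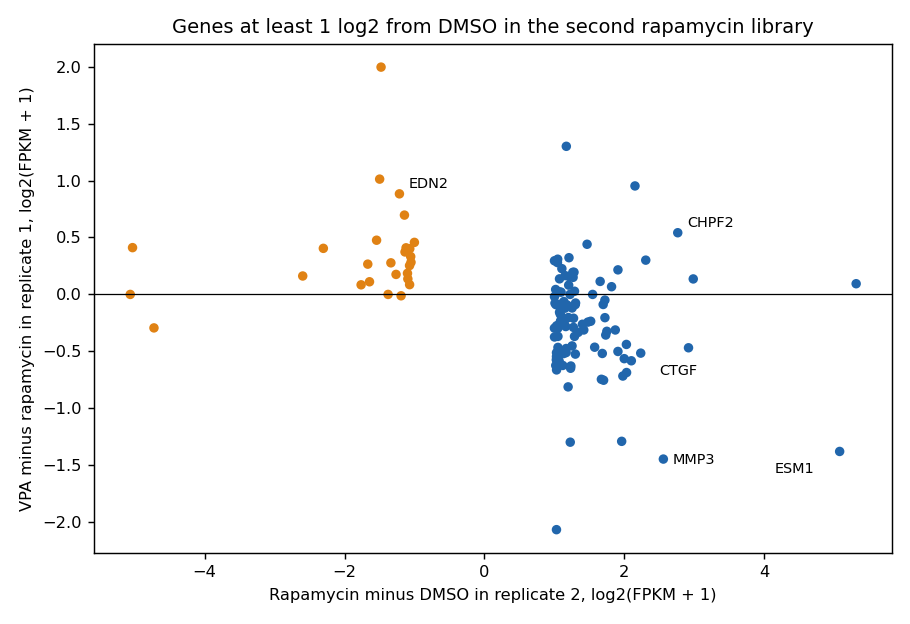
The x axis is rapamycin minus DMSO in the second table and the y axis VPA minus rapamycin in the first, both on the log2(FPKM + 1) scale, for the 127 genes at least 1 log2 from DMSO in the second table. Genes above DMSO (blue, 100 genes) have a median of -0.24 on the y axis and genes below it (orange, 27 genes) a median of 0.28.

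At the threshold of the rule, the genes just inside were AK093551 (listed at 0 in VPA and rapamycin), FLJ27354 (1.17 FPKM in VPA and 1.12 FPKM in rapamycin) and ENTPD1 (0.834 FPKM in VPA and 0.920 FPKM in rapamycin). Just outside were DQ580909 (0.860 FPKM in VPA and 0.864 FPKM in rapamycin), CACNA2D4 (1.82 FPKM in VPA and 0.401 FPKM in rapamycin) and SLC2A14 (listed at 0 in both).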

How the data were processed

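The authors deposited FPKM values per gene in 2 tables, 10 libraries in the first replicate set and 4 in the second. The submitters' processing notes name FastQC, cutadapt, TopHat2 and the hg19 build, without versions. The sources used here do not give the program that computed FPKM, its annotation or the read strand, so overlapping, antisense and near-identical genes are uncertain. Per the labels, mRNA was isolated and the libraries were amplified by PCR.

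The row called unknown was dropped, and every column of the deposited tables was mapped to a sample (0 unused). Values were compared as log2(FPKM + 1), which understates differences of low genes, where the mean FPKM of the 10 libraries was 1 or more, in Python 3.11.15 with pandas 2.3.3. With 1 VPA library no test was run. Apart means a difference of at least 1 log2, and 1.5-fold a difference of that size in FPKM + 1. Each difference was taken within 1 table. Depth came from the steps of low values, and reads per gene from GENCODE v29 transcript lengths. Simulated data were used to check the relative depth of a pair of libraries and the calls at 1 log2. Reads per gene were not checked in this way. Read numbers are rough and cover counting error only.

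The pair, the 40 gene lists, 4 marker lists and 20 fixed genes were chosen with earlier results of these data known. Named genes are the 15 furthest apart in each direction after small RNA and clone rows, up to 4 members of each list at least 1.5-fold apart, and the fixed genes; others were chosen after their values were seen. The alternatives were other pseudocounts, filters and scalings.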

Additional observations from a re-analysis of the deposited data

How the results depend on the processing

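Of 12 alternative settings, 9 were chosen at the start and 3 after the data were seen (genes listed at 0 left out, at least 1 FPKM in both libraries, the mean taken without 2-PCPA). The sign of small differences depended on scaling: 15 of the 40 list medians turned below 0 with median centring, 14 changed sign with quantile normalization and 8 with TPM scaling. As reported, all of these lay between 0 and the all-gene median of 0.08 log2. Of the filters, a mean of at least 5 FPKM changed the sign of 3, and at least 1 FPKM in both libraries and the mean over the VPA and rapamycin columns that of 1 each. Of the named genes, FKBP1A alone changed sign, at 0.04 log2 as reported and -0.04, -0.05 and -0.01 log2 under these scalings in the same order. The split of genes apart turned as well, to 153 higher and 185 lower with median centring and to 165 and 183 with quantile normalization. The counts of genes higher and lower in VPA, 183 and 148 as reported, were 478 and 318 with a pseudocount of 0.1 and 45 and 34 with a pseudocount of 5. They were 277 and 235 with no filter, 60 and 49 with a mean of at least 5 FPKM, 281 and 246 with TPM scaling, 106 and 74 without small RNA and clone rows, and 73 and 57 with at least 1 FPKM in both libraries. The counts of list genes, 7 and 7 as reported, were 13 and 12 with a pseudocount of 0.1, 2 and 0 with a pseudocount of 5, 4 and 3 with a mean of at least 5 FPKM and 4 and 3 with at least 1 FPKM in both. The pair ranked 2 by genes apart and 6 by Pearson correlation when the filter used the VPA and rapamycin columns alone. It ranked 1 by Pearson correlation without small RNA and clone rows, without genes listed at 0 and with at least 1 FPKM in both. The share of genes higher in VPA with the second rapamycin library below its DMSO was 67.7% with a pseudocount of 5 and 67.4% with a mean of at least 5 FPKM. The robust SD between tables was 0.174 log2 with no filter. Of 1225 values of single genes 162 moved by more than the between-table spread, and of 480 list medians 2 did. The cause of these changes was not tested. No paired analysis was possible because VPA has 1 library and no test was run.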

Other observations

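The proteasome, which degrades ubiquitinated proteins, was below DMSO in both libraries of the pair. Its median gene had 90.1 FPKM in VPA, 83.1 FPKM in rapamycin and 117 FPKM in DMSO, and 29 of 31 genes in VPA and 30 of 31 in rapamycin were below DMSO. The second rapamycin library had 31 of 31 genes below its DMSO, with a median of -0.20 log2. Heat shock proteins, the cytosolic chaperones, had medians of 78.0 FPKM in VPA, 80.7 FPKM in rapamycin and 101 FPKM in DMSO, with 15 of 18 genes in VPA and 16 of 18 in rapamycin below DMSO. In the second rapamycin library 17 of 18 were below its DMSO. For aminoacyl tRNA synthetases, which load amino acids onto tRNA, the median of VPA minus rapamycin was 0.06 log2, and 18 of 19 genes were below DMSO in each. The second rapamycin library had 13 of 19 below its DMSO. Of all 11751 genes found in both tables, 55.6% were below DMSO in that library, and 13 of 19 is the count nearest to this share. In the first set the medians of all genes against DMSO were 0.01 log2 in VPA and -0.06 log2 in rapamycin. The shares of all genes above and below that DMSO were not counted, so the first-set counts have no background share. The first-set values against DMSO share 1 DMSO library.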
